A study of Homo sapiens with 12 samples.

Results

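GATOR1 and KICSTOR are protein complexes of the lysosome that hold mTORC1, the kinase complex that drives cell growth, in check when amino acids are short. GATOR1 is made of NPRL2, NPRL3 and DEPDC5 and switches off the Rag GTPases, which otherwise bring mTORC1 to the lysosome. KICSTOR, which includes KPTN, ITFG2 and C12orf66 (now named KICS2), tethers GATOR1 to the lysosomal surface. Here these 6 genes were followed through a genome-wide knockout screen. All 6 symbols were found among the 19112 genes of the screen's table, and each was targeted by 4 guides, 24 in all. The genes were chosen by name with their scores in the 4 conditions already known, so the scores are given as a description.

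The screen used HEK293, a human embryonic kidney line transformed with adenovirus DNA, and the Brunello library of Cas9 guides. Every sample came from transduced pools that had been selected with puromycin, in medium that held glutamine, pyruvate and uridine, and was collected on day 15 of treatment. The conditions were the ethanol solvent (EtOH), 15 µM actinonin (ACT), which causes faulty translation in mitochondria, 5 µg/mL chloramphenicol (CAP), which stops the mitochondrial ribosome, and both drugs at these doses (ACT CAP), with 3 replicates each and 12 samples in all. The pool is a mixed population in which not every guide gives a full loss of its gene, and the deposited scores say nothing about mTORC1 activity.

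For each gene and condition the table gave a beta score, the fitted shift in the abundance of a gene's guides, and a z score, which is beta divided by its standard error. A positive beta means that cells carrying those guides became more frequent relative to the reference of the fit, which the table did not name, and a negative beta that they became rarer. Each score joined 3 replicates and 4 guides, so no value per replicate or guide is shown and the error is the standard error (SE) of the fit. Of the 24 z values of the 6 genes, 5 stood as dates in the table, all in GATOR1, and were recomputed from the p-value of the fit. Most genes scored below 0. The median z of all genes was -2.03 in EtOH, -1.73 under ACT, -1.78 under CAP and -1.70 under ACT CAP, and the share of genes with a z above 0 was 7.29%, 13.4%, 9.40% and 9.92% in the same order.

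In EtOH, loss of each GATOR1 subunit went with a gain in guide abundance that few genes of the library matched, whereas the KICSTOR genes scored slightly below 0. The 3 GATOR1 genes had a z between 2.70 and 3.16, and the 3 KICSTOR genes had a z between -1.51 and -0.610. Under ACT all 3 GATOR1 genes ranked lower than in EtOH, at 300 (NPRL3), 902 (DEPDC5) and 1316 (NPRL2) from the top. NPRL2 ranked 11534 under CAP and 3350 under ACT CAP, and NPRL3 2292 and 9927. DEPDC5 ranked 129 and 211 in these 2 conditions.

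**Figure D1:**
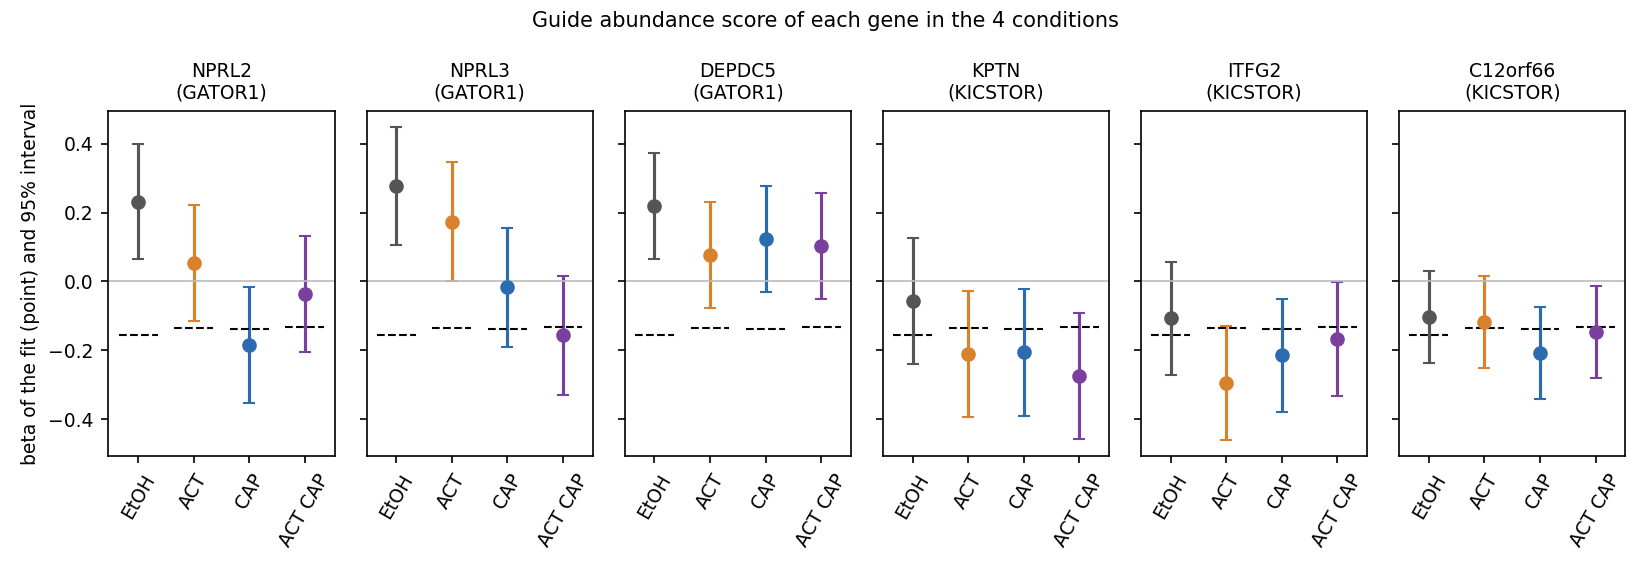
Beta score of the 6 genes in EtOH, ACT, CAP and ACT CAP (horizontal axes). Points are the fitted beta over 3 replicates and 4 guides, bars its 95% interval, and the short dashed lines the median beta of all 19112 genes in that condition. The 3 GATOR1 genes lay between 0.218 and 0.277 in EtOH, and in CAP they were spread from -0.185 (NPRL2) to 0.124 (DEPDC5).

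NPRL3, a GATOR1 subunit that pairs with NPRL2, had the highest z of the 6 genes in EtOH. Its beta was 0.277 ± 0.088 (SE) in EtOH, 0.173 under ACT, -0.017 under CAP and -0.156 under ACT CAP. The z values were 3.16, 1.97, -0.187 and -1.77. Out of the 19112 genes it thus ranked 17 from the top in EtOH and 300 in ACT, but 2292 in CAP and 9927 in ACT CAP, close to the middle of the library.

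NPRL2 is the subunit that carries the activity of GATOR1 towards the Rag GTPases. Its beta was 0.232 ± 0.086 (SE) in EtOH, 0.053 under ACT, -0.185 under CAP and -0.038 under ACT CAP. The z values were 2.70, 0.618, -2.15 and -0.437, with ranks of 27, 1316, 11534 and 3350. NPRL2 was therefore lowest in CAP, and NPRL3 in ACT CAP. This order was not resolved by the fit, because for NPRL2 as for NPRL3 CAP and ACT CAP were neighbours in the order of the betas and lay within the 95% interval of their difference.

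DEPDC5 is the largest GATOR1 subunit and contacts the Rag GTPases. Its beta was 0.218 ± 0.078 (SE) in EtOH, 0.076 under ACT, 0.124 under CAP and 0.102 under ACT CAP. The z values were 2.79, 0.968, 1.59 and 1.30. DEPDC5 was above 0 in every condition, and it ranked 26 in EtOH, 902 under ACT, 129 under CAP and 211 under ACT CAP.

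The KICSTOR genes were below 0 in every condition, as most genes were. In EtOH they lay above the median of all genes, with 83.9% of genes below KPTN, 69.3% below ITFG2 and 63.6% below C12orf66. KPTN, the subunit that gives the complex part of its name, had a z of -0.610 in EtOH, -2.25 under ACT, -2.20 under CAP and -2.92 under ACT CAP. Its beta went from -0.057 ± 0.093 (SE) in EtOH to -0.275 in ACT CAP. The gene was in the top 3074 of the library in EtOH and was lower than the median of all genes in each drug condition.

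ITFG2, another KICSTOR subunit, had its lowest value in ACT. The z values were -1.29 in EtOH, -3.51 under ACT, -2.56 under CAP and -1.99 under ACT CAP, with a beta of -0.108 ± 0.084 (SE) in EtOH and -0.296 in ACT. C12orf66 had z values of -1.51, -1.71, -3.03 and -2.16 in the same order. Its beta was -0.103 ± 0.068 (SE) in EtOH and -0.207 in CAP. The lowest condition thus differed among the 3 KICSTOR genes. Across all 6 genes, 0 of 18 pairs of neighbouring conditions differed by more than the 95% interval. By these intervals the full order of the conditions was not resolved for any of them.

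The question the design asks of each gene is whether its loss helps or harms cells more under a drug than under EtOH. Genes at a z difference of 3 or more were called suppressors, whose loss is better borne under the drug than in EtOH. Those at -3 or less were called synthetic sick, whose loss is worse borne than in EtOH. Such a gene need not score low under the drug. NPRL3 in CAP had 88.0% of genes below it and NPRL2 in ACT CAP 82.5%. For NPRL2 in CAP the share was 39.7%, and for NPRL3 in ACT CAP 48.1%. The paper set the drug doses to inhibit growth to a similar extent, and whether slower growth shifts the scores was not tested. Beside the z difference stands the Wald difference, the difference of 2 betas over its standard error, centred and scaled over all genes. It was called at a Benjamini-Hochberg adjusted p of 0.05. The 3 comparisons with EtOH share the EtOH values, so that a high or low EtOH score enters all of them.

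**Figure D2:**
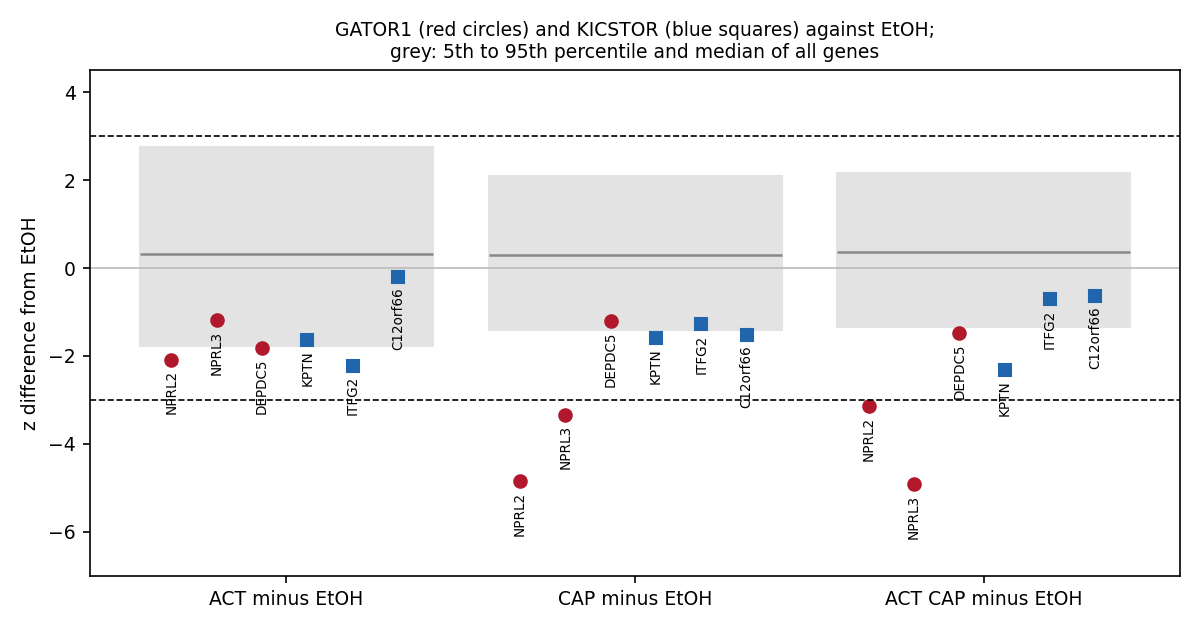
z difference (vertical axis) of the GATOR1 genes (red circles) and KICSTOR genes (blue squares) in the 3 comparisons with EtOH. Grey boxes run from the 5th to the 95th percentile of all genes with a line at their median, and dashed lines mark 3 and -3. NPRL2 and NPRL3 lay past -3 in CAP and in ACT CAP, and no gene of the plot did in ACT.

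In CAP against EtOH, NPRL2 and NPRL3 were at or under -3, which makes 2 of 6 genes, against 0.183% of all genes. The share was 10% among the 50 genes with a z of 2 or more in EtOH, these 2 among them. NPRL2 had a z difference of -4.85, rank 7 from the bottom of the library, and a beta difference of -0.417 ± 0.121 (SE) with a 95% interval from -0.655 to -0.179. For NPRL3 the z difference was -3.34 at rank 18, and the beta difference was -0.293 ± 0.124 (SE). By the Wald difference NPRL2 alone was called (-5.08), as 1 of 6 genes against 0.0628% of all genes, while NPRL3 at -3.58 did not reach the smallest value called, 3.85 in size. The other 4 genes had z differences between -1.59 (KPTN) and -1.20 (DEPDC5) and were not called. With the Wald difference read against a standard normal null, NPRL2 was not called either. None of the 6 genes was called higher, where 1.13% of all genes had a z difference of 3 or more and 0.188% passed the Wald difference.

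In ACT CAP against EtOH the same 2 genes were at or under -3, 2 of 6 against 0.188% of all genes. Among the 50 genes with a z of 2 or more in EtOH the share was 18%. NPRL3 had a z difference of -4.92 at rank 6 and a beta difference of -0.433 ± 0.125 (SE) with a 95% interval from -0.677 to -0.189. NPRL2 had a z difference of -3.14 at rank 29 and a beta difference of -0.270 ± 0.121 (SE). By the Wald difference NPRL3 alone was called (-5.23), 1 of 6 against 0.0837% of all genes, and NPRL2 (-3.47) was short of the smallest value called, 3.82 in size. KPTN came next with a z difference of -2.31 at rank 140, and DEPDC5, ITFG2 and C12orf66 were at -1.49, -0.702 and -0.646. None of these 4 was called, and with a standard normal null NPRL3 was not called either. None of the 6 was called higher by the z difference (1.27% of all genes) or by the Wald difference (0.194%).

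In ACT against EtOH no gene of the 6 was called by the z difference, where 0.769% of all genes were at -3 or less and 4.02% at 3 or more, or by the Wald difference (0.157% lower, 1.08% higher). The z differences were -2.22 for ITFG2, -2.09 for NPRL2, -1.82 for DEPDC5, -1.64 for KPTN, -1.19 for NPRL3 and -0.196 for C12orf66. At an unadjusted p of 0.05 for the Wald difference, 1 of 6 genes passed (ITFG2, -2.03), and 7.74% of all genes did. None of the 95% intervals of the 6 beta differences lay wholly below 0 in ACT, whereas 2 of 6 did in CAP and 2 of 6 in ACT CAP, those of NPRL2 and NPRL3 in each.

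The 6 genes had z differences below 0 in each of the comparisons, where 39.8% of all genes did under ACT, 38.8% under CAP and 36.0% under ACT CAP. Their median z difference was -1.73 under ACT, -1.56 under CAP and -1.90 under ACT CAP, against medians of 0.317, 0.285 and 0.360 over all genes. No difference between the 6 genes and the rest was tested.

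ACT was also set against ACT CAP, which asks how ACT alone differed from both drugs given together. NPRL3 had a higher z in ACT by 3.74, rank 95 from the top, with a beta difference of 0.330 ± 0.125 (SE). It was the only one of the 6 genes past 3, against 1.25% of all genes, and also passed the Wald difference (3.58, against a smallest value called of 3.53), as did 0.534% of all genes. With a standard normal null, or at an adjusted p of 0.01, it was not called. The z difference was 1.06 for NPRL2, 0.672 for KPTN, 0.450 for C12orf66, -0.334 for DEPDC5 and -1.52 for ITFG2. None was called lower, where 0.665% of all genes were at -3 or less and 0.288% passed the Wald difference.

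For the interaction, which asks whether the effect of ACT was different with CAP present, 0 of 6 genes passed the Wald difference, against 0.0994% of all genes called higher and 0.513% called lower. At an unadjusted p of 0.05, 2 of 6 passed, NPRL2 (Wald difference 2.68) and ITFG2 (2.03), and 7.24% of all genes did. For NPRL2 the step from EtOH to ACT was -0.179 in beta and the interaction 0.326 ± 0.172 (SE), with a 95% interval from -0.011 to 0.663. For NPRL3 the interaction was -0.037 ± 0.176 (SE), with a 95% interval from -0.382 to 0.309. These intervals lack the centring and scaling of the Wald difference (scale 0.752 here), so for NPRL2 the interval and the unadjusted p differ.

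The 3 GATOR1 genes were high in EtOH, and genes picked for a high EtOH score tend to be lower in any other condition through that choice. The 50 genes with a z of 2 or more in EtOH, a set formed after its values were seen, had a median z difference of -1.39 under ACT, -1.15 under CAP and -1.40 under ACT CAP. Of these 50 genes, the 3 GATOR1 genes among them, 18% were at -3 or less under ACT, 10% under CAP and 18% under ACT CAP. How much of the differences of NPRL2 and NPRL3 comes with their high EtOH score was not tested. A running median over genes ordered by z in EtOH was also taken off. For the GATOR1 genes, at the end of that order, it was the same value for all 3, -0.716 in CAP and -0.750 in ACT CAP, smaller in size than the median of the 50 genes. With it taken off, NPRL2 in CAP stood at -4.14 and NPRL3 in ACT CAP at -4.17, while NPRL3 in CAP (-2.63) and NPRL2 in ACT CAP (-2.39) were no longer past -3.

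**Figure D3:**
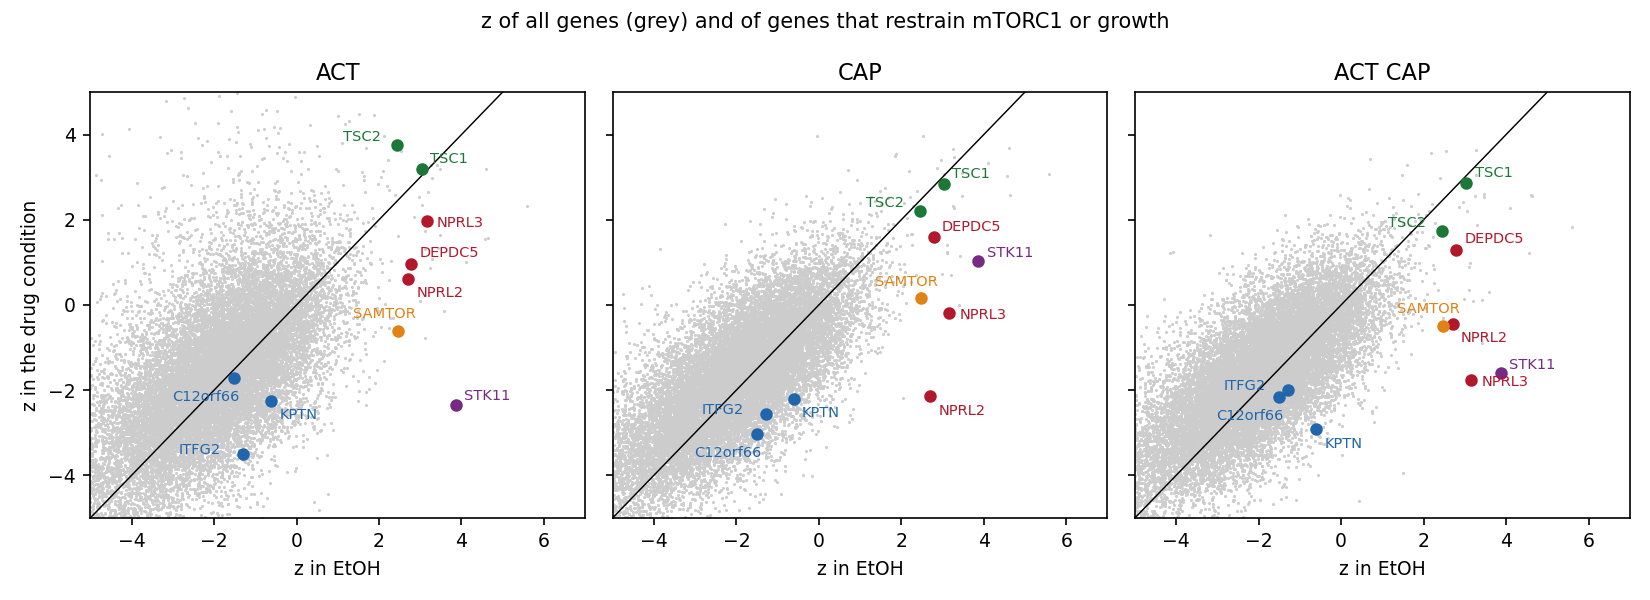
z in ACT, CAP and ACT CAP (vertical axes) against z in EtOH (horizontal axis); each grey point is a gene, coloured points are named genes that restrain mTORC1 or growth, the line marks equal z, and values under -5 or over the frame are not drawn. TSC1 lay close to the line in every panel, NPRL2 and NPRL3 lay furthest from it among the GATOR1 genes in CAP and ACT CAP, and the KICSTOR genes lay inside the grey cloud.

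The genes of the whole library with the most similar scores were found by the Euclidean distance over the 4 z values, a description over 4 conditions with 1 pooled value each. For NPRL2 the nearest was OSTN at a distance of 1.37, followed by GRAP2 and TRIM23. For NPRL3 the nearest was PDHB at 1.62, a subunit of the pyruvate dehydrogenase complex, then EP300, an acetyltransferase, and DLAT, another pyruvate dehydrogenase subunit. With z standardised in each condition, ADNP took the place of DLAT. DEPDC5 had closer neighbours, with UBE2F at 0.607, then XKR6 and RABIF.

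The GATOR1 genes were not each other's nearest genes. Seen from NPRL3, NPRL2 was in place 19 of the other genes, and seen from NPRL2, NPRL3 was in place 120. DEPDC5 was further away, in place 361 from NPRL3 and 2889 from NPRL2. Seen from DEPDC5, NPRL3 was in place 1044 and NPRL2 in place 1643. The KICSTOR genes lay in a denser part of the library. Seen from one another, they were in places from 785 (C12orf66 from KPTN) to 3831 (ITFG2 from C12orf66). KPTN was nearest to FGF12, OR52W1 and KAT2B, ITFG2 to C10orf131, TMEM18 and DCDC5, and C12orf66 to TBCCD1, PER3 and PRICKLE4.

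Beside the 6 genes, 57 further genes of the mTORC1 pathway were followed from fixed lists. Of these, 2 had a z difference of 3 or more and 1 of -3 or less in ACT, 1 and 0 in CAP, and 2 and 0 in ACT CAP. The shares of all genes were 4.02% and 0.769% in ACT, 1.13% and 0.183% in CAP, and 1.27% and 0.188% in ACT CAP. Their median z difference was 0.258 under ACT, 0.296 under CAP and 0.497 under ACT CAP, near the medians of all genes.

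**Figure D4:**
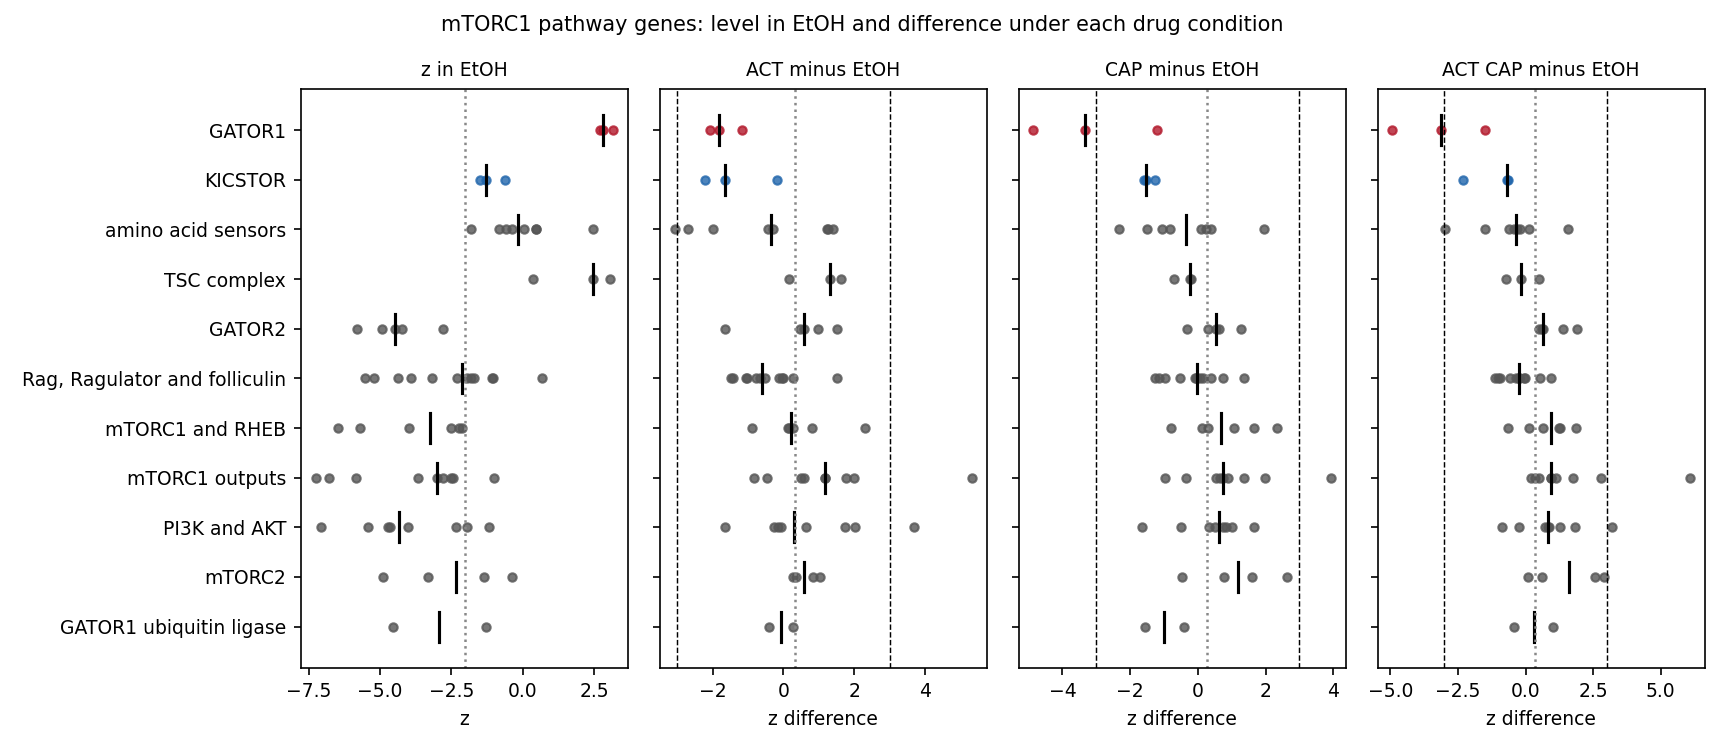
z in EtOH (left) and z difference under each drug condition (the other panels) of GATOR1 (red), KICSTOR (blue) and other mTORC1 pathway genes (grey), a row for each list. Each point is a gene, black ticks mark the list's median, dotted lines the median of all genes and dashed lines 3 and -3. The GATOR1 and TSC genes were above 0 in EtOH, the GATOR2 genes were at or under -2.81, and the scales differ between panels.

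The list of amino acid sensors had a median z of -0.16 in EtOH over 8 genes. The highest was C7orf60, now named SAMTOR, which senses S-adenosylmethionine and acts through GATOR1 and KICSTOR. Its z was 2.47 in EtOH, rank 29 and close to NPRL2 and DEPDC5, then -0.604 under ACT, 0.157 under CAP and -0.490 under ACT CAP. The z difference from EtOH was -3.08 under ACT, -2.31 under CAP and -2.96 under ACT CAP, past -3 in ACT only, and the Wald difference was not called in any of them. The lowest sensor in EtOH was CASTOR1, an arginine sensor, at -1.83. GATOR2, which opposes GATOR1, scored below the median z of all genes in EtOH, -2.03. Its 5 subunits had z values from -2.81 (SEC13, with 31.1% of genes below it) to -5.81 (WDR24, with 2.74%). In the comparisons with EtOH, 0 of 5 were called.

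The TSC complex is a separate brake that switches off RHEB, the activator of mTORC1. TSC1 had a z of 3.03 in EtOH, 3.18 under ACT, 2.84 under CAP and 2.86 under ACT CAP, and TSC2 had 2.45, 3.75, 2.20 and 1.74. All 4 z values of TSC2, and those of TSC1 in CAP and ACT CAP, stood as dates in the table and were recomputed from the p-value. In EtOH they ranked 22 and 31, close to the ranks of GATOR1. Their z differences were 0.147 and 1.31 in ACT and -0.191 and -0.245 in CAP, and neither gene was called in any comparison. Their standard errors were larger than those of GATOR1 (0.228 for TSC1 and 0.366 for TSC2 in EtOH, against 0.078 to 0.088), so that the same z stands for a larger beta. The beta of TSC2 went from 0.896 in EtOH to 0.639 in ACT CAP, at a z difference of -0.705. That of NPRL2 went from 0.232 to -0.038, at a z difference of -3.14. TBC1D7, the remaining subunit, had a z of 0.360 in EtOH and was not called. The difference between the GATOR1 and the TSC genes was not tested.

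In the list of mTORC1 and RHEB, scores in EtOH were uneven. RPTOR, the scaffold of mTORC1, had a z of -5.71, MLST8 of -6.48 and MTOR of -3.99. RHEB was at -2.53, with 37.4% of genes below it. DEPTOR (-2.24) and AKT1S1 (-2.13) also lay near the median of all genes, -2.03. In the list of Rag, Ragulator and folliculin genes, the highest was FLCN, a Rag regulator, at 0.66, and the lowest was LAMTOR2, a lysosomal anchor of the Rag GTPases, at -5.51. None of these 18 genes was called in any comparison with EtOH.

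Among the 57 pathway genes, those at a z difference of 3 or more from EtOH were AKT1 and LARP1. AKT1, a kinase downstream of PI3K, had a z of -5.41 in EtOH and was higher by 3.68 in ACT and 3.20 in ACT CAP, past 3 but not past the Wald difference. LARP1, a repressor of mRNAs of the translation machinery and a target of mTORC1, had a z of -6.78 in EtOH and was higher by 5.32 under ACT, 3.93 under CAP and 6.08 under ACT CAP. LARP1 passed the Wald difference in ACT and in ACT CAP. STK11, the kinase LKB1 that activates AMPK, belongs to the 12 growth suppressors of other pathways. It had a z of 3.87 in EtOH, -2.34 under ACT, 1.03 under CAP and -1.61 under ACT CAP, and was called lower in ACT and in ACT CAP but not in CAP.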

How the data were processed

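The deposited data were 1 table of a knockout screen with 12 samples, 3 replicates in each of 4 conditions assigned from their labels. The authors counted guides (76441 in the table, 4 for 19103 of 19112 genes) and ran MAGeCK, whose version is not given in the sources used here. The table holds, per gene and condition, a beta score and a z score, both deposited by the authors, and a Wald p-value, also deposited. Permutation p-values and FDRs were not used. Replicates were joined in that fit and the reads per sample were not used here, so the only error at hand is the standard error, beta divided by z.

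A spreadsheet had turned 1146 of 76448 z values into dates, 5 of the 24 of the 6 genes among them (NPRL2 in EtOH, NPRL3 in ACT, and DEPDC5 in EtOH, CAP and ACT CAP). Each was rebuilt from the Wald p-value, with the sign of its beta. Of these, 1120 lay within 0.0003 of a number that such software would read as the date shown, and intact z values were recomputed to within 0.00102. For TSC2 in ACT the beta was a date too, and was taken as z times the mean standard error of its other conditions.

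Each drug condition was compared with EtOH, and ACT with ACT CAP, by the z difference (3 or more, -3 or less). The Wald difference was the beta difference over its standard error (the squared errors of both betas summed, then the root), minus its median over all genes, in units of their median absolute deviation (factor 1.4826). Its 2-sided normal p was Benjamini-Hochberg adjusted over the whole table and called at 0.05. The interaction was treated in the same way. Genes of 11 lists written from general knowledge were described by counts and medians. Together with the 6 genes they made 89 genes, all matched, 3 of them under another symbol. The 6 genes, the lists and the tests were chosen with earlier results of these data known. Named in the text are the 6 genes, list genes called in a comparison, and the 3 genes nearest to each of the 6. Some, but not all, of the genes highest or lowest in EtOH in their list are named too. Of the v-ATPase list, only counts and medians are given, and none of its genes is named. Other list genes that are named were chosen after their values were seen. Symbols were checked in RefSeq (GRCh38.p14), for names only. Some items are not reported here, and guide sequences were not used here.

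Alternatives were centred or standardised z, a threshold of 4, subtraction of a running median taken along z in the second condition, an adjusted p of 0.01, a standard normal null, genes with exactly 4 guides, and genes without dates. The calculation was tested on simulated data. Scripts ran in Python 3.11.15 with pandas 2.3.3, numpy 2.4.6, matplotlib 3.10.9 and scipy 1.17.1.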

Additional observations from a re-analysis of the deposited data

How the results depend on the processing

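The z differences of the 6 genes stayed below 0 in each comparison with EtOH under 4 settings on the z scale, among them centred and standardised z and the running-median correction. The calls were less stable. With z centred on its median or only genes with exactly 4 guides, 2 of 6 genes stayed lower in CAP and in ACT CAP. In both, the count was 1 with standardised z, a threshold of 4, the running-median correction, the Wald difference, the Wald difference at an adjusted p of 0.01, and the Wald difference with genes of exactly 4 guides. It was 0 for the Wald difference with a standard normal null, in CAP as in ACT CAP. NPRL2 in CAP then had a Wald difference of -3.43 and NPRL3 in ACT CAP of -3.48. Leaving out genes with a z written as a date also gave 0, by the z and by the Wald difference, because it removed all 3 GATOR1 genes and left 3 of the 6. In ACT against ACT CAP, where 1 gene (NPRL3) was higher, the count was 0 with standardised z, a threshold of 4, an adjusted p of 0.01, a standard normal null and without the genes with dates, again by the z and by the Wald difference. It was 1 with the running-median correction and with the Wald difference. The cause of these moves was not tested, apart from the genes removed.

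No paired analysis was possible because the table holds 1 value per condition and none per replicate. For the same reason leaving out each replicate in turn was not run. Read depth per sample was not used here, so what depth limits is known only through the standard error, which was 0.068 to 0.093 in EtOH for the 6 genes.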

Other observations

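The v-ATPase, the proton pump of the lysosome, was followed as a comparison. Its 14 genes had a median z of -6.32 in EtOH. The median z difference was 5.25 under ACT, 3.14 under CAP and 2.72 under ACT CAP, and 12, 8 and 6 of the 14 genes had a z difference of 3 or more, against 4.02%, 1.13% and 1.27% of all genes. By the Wald difference 9, 1 and 2 were called higher, against 1.08%, 0.188% and 0.194%. No difference between the v-ATPase and the GATOR genes was tested.

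Of the genes that bear on GATOR1 turnover, KLHL22 and CUL3, a ubiquitin ligase of DEPDC5, had z values of -1.31 and -4.55 in EtOH, and neither was called in any comparison.

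The dates that stood in place of z values fell on GATOR1 more than on KICSTOR. Of the 24 z values of the 6 genes 5 were dates, all in the 3 GATOR1 genes, whose z values are the ones above 1 that such software can take for a date. The date shown kept the whole part of the number as its month, and the date's other digits were the last 2 of the number's 4 decimals. The recomputed values for the 6 genes lay within 5.85e-05 of a matching number, 2.70 for NPRL2 and 2.79 for DEPDC5 in EtOH among them. With such cells taken as missing, every GATOR1 gene would drop out of the comparisons with EtOH, except NPRL3 in CAP and ACT CAP.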
